A study of Oncorhynchus mykiss with 3 samples.

Results

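The miR-17-92 clusters and their paralogs were examined in small RNA sequences of rainbow trout eggs. The members are the 39 names in the table of known miRNAs whose family is miR-17, miR-18, miR-19, miR-20, miR-25, miR-92, miR-93, miR-106 or miR-363, with both arms of the hairpin and every listed sequence. They are 39 of 575 names of known miRNAs and hold 77 of 1059 sequences. The reads of the members summed to 187889 of 7684127, or 2.45% of the reads of known miRNAs (95% interval 2.43 to 2.46).

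Eggs of Oncorhynchus mykiss females from a commercial line were sampled at day 1 (D1PO), day 7 (D7PO) and day 14 (D14PO) after ovulation, to examine small RNAs in eggs whose quality falls with post-ovulatory aging. The sample labels give survival rates of 91.8% for D1PO, 73.4% for D7PO and below 50% for D14PO. The methods give the same figures as fertilization rates. As labelled, the 3 groups differ by the age and this rate of the eggs alone, with no genotype or agent given in the labels, and the age of the females is not given. RNA of several females was pooled and sequenced as 1 library at each age, without a replicate. A single read number stands beside each sequence, in a column with no library named. It was taken as a sum over the 3 libraries, though neither the labels nor the methods say so, and the deposited tables allow no value for a single age and no test between ages. All 95% intervals cover counting error only, since these are PCR-amplified reads without molecular identifiers, and a read total does not compare 2 miRNAs that differ in how well they are ligated or amplified.

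A miRNA is cut from a hairpin whose 5′ side gives the 5p arm and whose 3′ side gives the 3p arm. Its seed, bases 2 to 8 from the 5′ end, does most of the pairing with target mRNAs, so miRNAs with 1 seed share many predicted targets. In mammals the miR-17-92 transcript carries, in this order, miR-17, miR-18a, miR-19a, miR-20a, miR-19b-1 and miR-92a-1, and its paralogs are the miR-106a-363 and miR-106b-25 clusters. The cluster is known from dividing and developing cells, where MYC and E2F factors drive its transcription and its miRNAs repress, among others, BIM and the cell cycle inhibitor CDKN1A (miR-17 and miR-20).

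The most abundant sequence of each leading name is shown to let the shared seeds be seen, 5′ to 3′, with the seed in capitals. The leading names of the miR-92 group (miR-92, miR-25 and miR-363) share a seed and differ mostly after it.
omy-miR-92a-3p: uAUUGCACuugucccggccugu
omy-miR-92b-3p: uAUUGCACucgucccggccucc
omy-miR-25-3p: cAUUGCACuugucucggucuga
omy-miR-363-3p: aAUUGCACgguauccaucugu
The miR-19 group holds a second seed, and its leading names differ after it at only a few bases.
omy-miR-19c-3p: uGUGCAAAuccaugcaaaacug
omy-miR-19d-3p: uGUGCAAAcccaagcaaaacug
omy-miR-19a-3p: uGUGCAAAuccaugcaaaacugu
The miR-17 group (miR-17, miR-20, miR-93 and miR-106) is read mainly from the 5p arm, and omy-miR-93-5p is shown in both its forms because the later start changes its seed.
omy-miR-17-5p: cAAAGUGCuuacagugcaggua
omy-miR-20a-5p: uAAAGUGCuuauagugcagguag
omy-miR-20b-5p: cAAAGUGCucacagugcaggua
omy-miR-106a-5p: uAAAGUGCugacagugcagaua
omy-miR-93-5p, earlier start: aAAAGUGCuguuugugcagguagu
omy-miR-93-5p, later start: aAAGUGCUguuugugcagguagu
The miR-18 group differs from the miR-17 group within the seed.
omy-miR-18a-5p: uAAGGUGCaucuaguguaguua
omy-miR-18b-5p: uAAGGUGCaucuagugcagaua

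The libraries also held miRNAs of the gonad, the embryo and of other tissues. The miR-202 family of the gonad held 4.03% of the reads of known miRNAs, and miR-430, which clears maternal mRNA in the fish embryo, held 0.370%. Families known from other cells were miR-451 of red blood cells with 2.22% (no name matched the other miRNA of that list, miR-144, by its number), the white blood cell families miR-142, miR-150, miR-155 and miR-223 with 0.131% in all, miR-126 of endothelium with 1.08% and the muscle families miR-1, miR-133 and miR-206 with 5.42%. The miR-17-92 families are known from many dividing cells, blood cells included, and the part of such cells in their reads was not tested.

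Reads were spread unevenly over the 39 names. 15 names had 1000 or more reads and together held 98.7% of the reads of the family, while the other 24 names held 10 to 433 reads each, with a median of 65. The 4 most abundant names, omy-miR-92a-3p, omy-miR-19c-3p, omy-miR-25-3p and omy-miR-19d-3p, held 77.6%. omy-miR-92a-3p had 52417 reads (95% Poisson interval 51969 to 52868) and ranked 24 among the 575 known names. omy-miR-19c-3p had 41480 (41082 to 41881) and ranked 29, and omy-miR-25-3p had 30633 (30291 to 30978) and ranked 41. The leading names are thus all from the 3p arm. The median member name had 193 reads, against 289 for the other known names and 186 for the predicted ones.

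**Figure D1:**
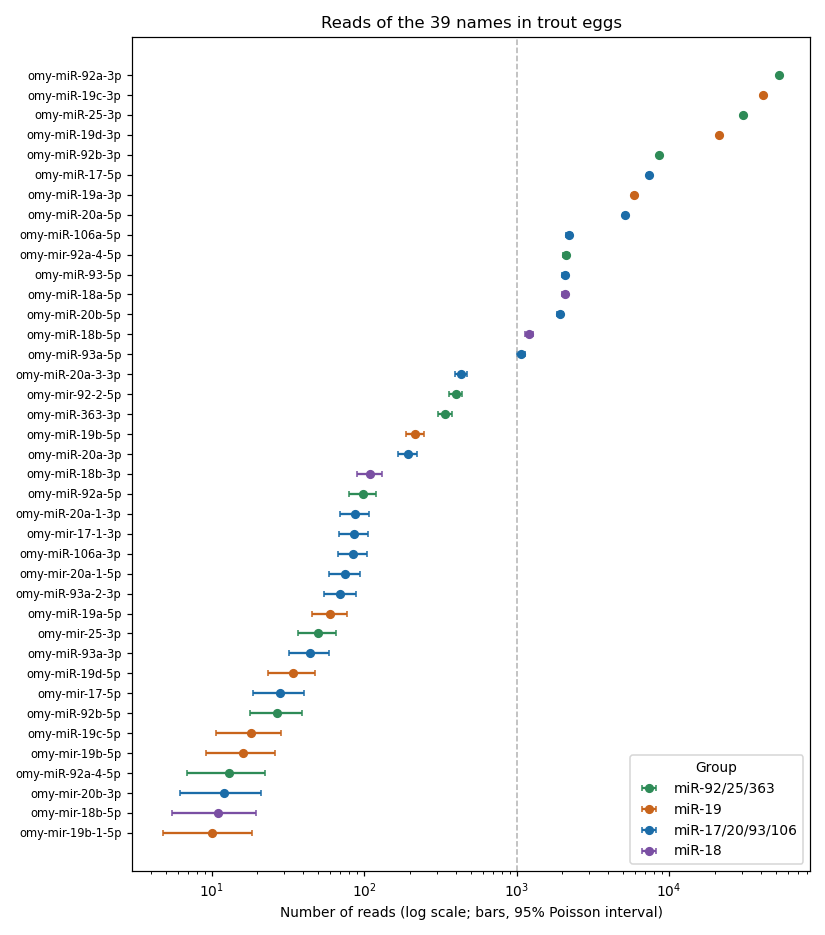
Number of reads of each of the 39 names on a log scale, coloured by group, with 95% Poisson intervals as bars and the line at 1000 reads dashed. The names run from 52417 reads for omy-miR-92a-3p to 10 for omy-mir-19b-1-5p, and 15 lie right of the line.

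Grouped by the families that share a seed, the miR-92 group held 94669 reads, or 50.4% of the reads of the 39 names (50.2 to 50.6). The miR-19 group held 68937, or 36.7% (36.5 to 36.9). The miR-17 group, which has the most names, 16, held 20890 or 11.1% (11.0 to 11.3), and miR-18 held 3393 or 1.81% (1.75 to 1.87). These intervals do not overlap, so the order of the 4 groups in the listed reads is beyond counting error. By single family, miR-19 led with 68937 reads, followed by miR-92 with 63646, miR-25 with 30683, miR-20 with 7855 and miR-17 with 7460. miR-93 had 3279 reads, miR-106 had 2296 and miR-363 had 340.

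The seed of a group was taken as the one with the most reads in it, so that it leads follows from this choice. The seed AUUGCAC was in 97.2% of the reads of the miR-92 group and GUGCAAA in 99.5% of those of miR-19. AAGGUGC was in 96.5% of the miR-18 reads and AAAGUGC in 89.5% of the reads of the miR-17 group. No known miRNA outside the 39 names and none of the 359 predicted sequences held any of these 4 seeds. Ranked by reads among the 510 seeds of known miRNAs, AUUGCAC stood at 16, GUGCAAA at 20, AAAGUGC at 46 and AAGGUGC at 96. All 4 seeds hold the letters GUGC or GCAC, the reverse complement of each other, and with the later start of miR-93 these letters stood in the seeds of 36 of 77 member sequences. They stood in the seeds of 74 of 982 other known sequences, or 7.54%, and of 12 of the 359 predicted ones, or 3.34%. The letters were picked from the members' own seeds, so their larger share among the members follows from that choice.

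**Figure D2:**
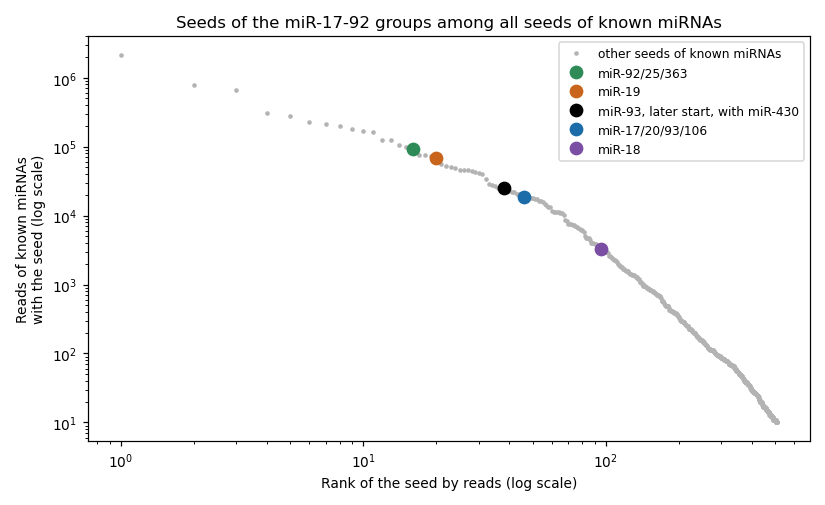
Reads of known miRNAs with each of the 510 seeds against the rank of the seed, both on log scales, with the seeds of the members coloured by group. The seed of the miR-92 group ranks 16, that of miR-19 ranks 20, that of the miR-17 group ranks 46 and that of miR-18 ranks 96, and the black point at rank 38 is the seed shared by miR-430 and the later start of miR-93.

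The seed of the miR-92 group is also found in the mammalian miR-32 and miR-367. It was held by 4 of the 10 names of the group, and these differed outside the seed alone. With positions counted from 1 at the 5′ end, omy-miR-92b-3p differed from omy-miR-92a-3p by U10C, G21C and U22C. omy-miR-25-3p differed from it by U1C, C14U, C18U and U22A, and was listed as 1 sequence alone. omy-miR-363-3p stood further off, with 11 substitutions from omy-miR-92a-3p over 21 bases and none in the seed. It had 340 reads over 3 sequences of 21, 22 and 23 nt, 166 of them at 21 nt and 68 at 23 nt. None of these sequences was listed with a genome position. omy-miR-92b-3p had 8588 reads (8407 to 8772) and ranked 86. The main sequence made up 89.6% of the reads of omy-miR-92a-3p and 89.8% of those of omy-miR-92b-3p, so these names from separate hairpins were read with like ends. Each also had a 25-nt form without a listed genome position, at 423 and 50 reads, and omy-miR-92a-3p a 23-nt one with 28 reads.

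The miR-19 names overlap in sequence, and their read totals depend on how the names were given. The first 20 bases of omy-miR-19c-3p were also those of 2965 reads named omy-miR-19a-3p, 50.5% of that name's 5871 reads (49.2 to 51.8). These reads differ from the main sequence of omy-miR-19c-3p only by an added U at base 23. The other omy-miR-19a-3p sequences carried C11U, with 2784 and 122 reads. omy-miR-19d-3p, with 21233 reads, was itself mixed. In 17988 of its reads, base 9 was C and base 13 was A, which are U9C and U13A against omy-miR-19c-3p. A further 3221 reads of the same name had C at base 9 but U at base 13. By bases 9, 11 and 13 together, whatever the name, the form with U, C and U held 64.8% of the 3p reads with a miR-19 seed and the form with C, C and A held 26.2%. The forms with C, C and U and with U, U and U held 4.72% and 4.24%. Thus 1 of 4 forms made up most of the miR-19 reads, and its 44445 reads are split over 2 names.

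The miR-19 reads were also divided at the 3′ end. Of its 3p reads with that seed, 46.8% ended at base 22, 48.7% had an A at base 23 and 4.50% a U. Both ends were common in omy-miR-19c-3p, with 22211 reads at 22 nt and 19129 at 23 nt with the added A. In omy-miR-19d-3p the form with A at base 13 had 9759 reads without and 8229 with that A. The remaining sequences of these names were rare, at 140 reads with G22C in omy-miR-19c-3p, 14 with an unread first base in omy-miR-19d-3p and 10 with G4U, which is in the seed, and A13U in omy-miR-19d-3p.

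In the miR-17 group, whose human members repress cell cycle inhibitors, omy-miR-17-5p led with 7346 reads (7179 to 7516) and omy-miR-20a-5p followed with 5138 (4998 to 5280). They differed by C1U and C12U. omy-miR-20b-5p, with 1917 reads, differed from omy-miR-17-5p by U10C alone. omy-miR-106a-5p had 2211 reads (2120 to 2305) and omy-miR-93-5p had 2089 (2000 to 2181), a ratio of 1.06 whose interval of 0.997 to 1.12 includes 1. omy-miR-93-5p had 1.09 times the reads of omy-miR-20b-5p (1.02 to 1.16). Both ratios leave out omy-miR-93a-5p of the same hairpin, with which the miR-93 5p reads come to 3165. omy-miR-106a-5p was listed with a pair of sequences, the one shown above with 1539 reads and a form with G10U and A20G with 672 (30.4% of its reads). The latter shares its first 20 bases with 37 reads named omy-miR-20a-5p.

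The miR-93 reads were split by their start. The names omy-miR-93-5p and omy-miR-93a-5p lie in 1 hairpin and held 3165 reads in all. Of these, 2099 or 66.3% (64.6 to 68.0) began at the earlier base and carried the seed AAAGUGC, and 1066 or 33.7% (32.0 to 35.4) began 1 base later and carried AAGUGCU. The later seed is that of the miR-430 family, the seed with which maternal mRNAs are bound in the zebrafish embryo. It was held by 22 of 31 miR-430 sequences with 23678 reads, and the later start of miR-93 made up 4.31% of all reads of known miRNAs with it. omy-miR-93a-5p, with 1076 reads, is the earlier form without the last base of omy-miR-93-5p, so these names separate ends of 1 miRNA.

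Such a shifted start was rarely listed in the other members. No known sequence is listed below 10 reads, so rarer starts could not be seen. The 12 members with 1000 or more reads and more than 1 sequence were compared. In 9 of them, no listed sequence had a start other than that of the main one. Only omy-miR-93-5p, at 49.0%, and omy-mir-92a-4-5p, at 61.3%, had over 1%. The remaining name, omy-miR-17-5p, had 14 reads with an earlier start, 0.191% of the name. Of 127 other known names selected alike, 93 had none and 20 had over 1%, with 51.3% as the highest, and the median was 0 in both sets. By this measure omy-mir-92a-4-5p ranked 1 and omy-miR-93-5p ranked 3 of the 139 names. The measure is taken against the start of the single most abundant sequence. In omy-mir-92a-4-5p that start holds only 38.7% of the reads, so the 61.3% is its more common start and its rank depends on this choice. These ranks are by name. Counted with omy-miR-93a-5p, 33.7% of the miR-93 reads had the later start, and omy-mir-92a-4-5p holds only sequences of 16 and 18 nt.

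The miR-18 group was the smallest. omy-miR-18a-5p had 2069 reads (1981 to 2160) and omy-miR-18b-5p had 1204 (1137 to 1274), and they differed by U17C and U20A. The main sequence held 75.5% of the reads of omy-miR-18a-5p, with 506 reads 1 base longer, and 79.7% of omy-miR-18b-5p, with 245 reads 2 bases longer. Both members were thus read, with more reads of omy-miR-18a-5p than counting error covers.

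By length, 69.3% of the members' reads were 22 nt and 27.8% were 23 nt. In the other known miRNAs, 53.8% were 22 nt and 11.0% were 23 nt. The 23-nt reads of the members were not evenly shared. omy-miR-19a-3p, omy-miR-20a-5p and omy-miR-93a-5p were listed at 23 nt alone, whereas omy-miR-25-3p, omy-miR-20b-5p and omy-miR-106a-5p were listed at 22 nt alone. In part this follows from how the names were given. The 22-nt form of 2965 omy-miR-19a-3p reads is named omy-miR-19c-3p, and a 24-nt form of omy-miR-93a-5p is named omy-miR-93-5p. The 23-nt form of 672 omy-miR-106a-5p reads is named omy-miR-20a-5p. A U stood first in 75.1% of the members' reads and in 82.9% of those of other known miRNAs, the members without it being led by omy-miR-25-3p, which begins with C.

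**Figure D3:**
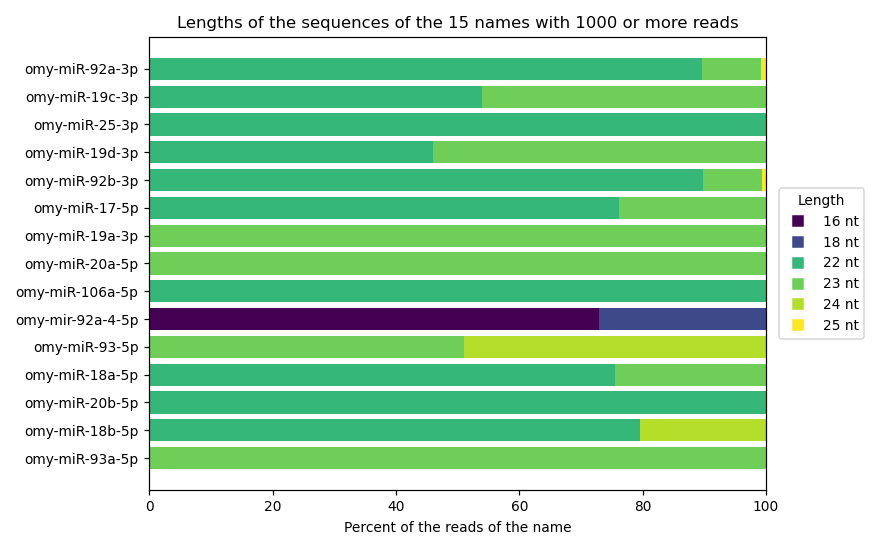
Percent of the reads of each of the 15 names with 1000 or more reads that fall in sequences of each length. omy-miR-25-3p is wholly 22 nt, omy-miR-19c-3p is 53.9% 22 nt and 46.1% 23 nt, and omy-mir-92a-4-5p holds only 16 and 18 nt.

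The arms were used very unequally. Of all reads of the 39 names, 97.8% (97.7 to 97.9) came from the arm that leads in its group, 3p in the miR-19 and miR-92 groups and 5p in the miR-17 and miR-18 groups. The share was 99.5% in the miR-19 group, 97.2% in the miR-92 group, 96.8% in the miR-18 group and 95.2% in the miR-17 group. Of the 2641 5p reads of the miR-92 group, 2104 were of omy-mir-92a-4-5p and 399 of omy-mir-92-2-5p, all at 18 nt or less. That the miR-92 group stands below the miR-19 group rests on these short sequences. The shares are over names, and single hairpins could differ. Those of miR-93a-2, miR-20a-1, miR-20a-3, miR-92a on chrUn_22 and miR-92b on chrUn_3 were listed with the other arm alone. Both arms were listed for 11 of 24 hairpins.

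Among these, the hairpin of omy-miR-19c-3p on chrUn was most one-sided as listed. It had 25432 3p reads and 18 5p reads, a ratio of 1413 (894 to 2384). Its 3p reads were 22211 of omy-miR-19c-3p and 3221 of omy-miR-19d-3p. The hairpin of omy-miR-19d-3p on chrUn_14 had 17988 3p and 34 5p reads, a ratio of 529 (378 to 764). The miR-19 hairpin on chrUn_22 had 19129 3p reads of omy-miR-19c-3p and 225 5p reads of omy-miR-19b-5p and omy-mir-19b-1-5p, a ratio of 85.0 (74.5 to 97.4). As listed, these ratios of the miR-19 hairpins differ from each other beyond counting error, but those on chrUn and chrUn_22 depend on where the table lists shared 3p sequences. The 22211 reads on chrUn are contained in forms listed on chrUn_22. Counted there, they would leave 3221 3p reads against 18 on chrUn. The leading rank of the chrUn hairpin and its difference from that on chrUn_22 thus rest on this listing. The hairpin of omy-miR-19a-3p on chromosome 3 had 2784 3p and 60 5p reads, a ratio of 46.4 (35.9 to 61.0).

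In the hairpins led by the 5p arm the ratios were lower than in the first pair. omy-miR-93-5p and omy-miR-93a-5p had 3165 reads and their partner omy-miR-93a-3p had 44, a ratio of 71.9 (53.5 to 99.2). omy-miR-17-5p on chrUn_22 had 5599 reads and omy-mir-17-1-3p 86, a ratio of 65.1 (52.6 to 81.5), which overlaps that of miR-93. omy-miR-20a-5p on chrUn_22 had 5101 reads and omy-miR-20a-3p 193, and the 5p reads of the miR-106a hairpin were 2248 against 85 of omy-miR-106a-3p. Both came to a ratio of 26.4, with intervals of 22.9 to 30.7 and 21.3 to 33.2. The 2248 reads join 1539 of the main omy-miR-106a-5p form, 672 with G10U and A20G and 37 named omy-miR-20a-5p. With the main form alone the ratio of the miR-106a hairpin would be lower. On chrUn_22 the ratios of miR-17 and miR-20a also depend on the listed copy, since 5585 of the omy-miR-17-5p reads and all 193 of omy-miR-20a-3p are contained in longer sequences listed on chromosome 3. The lowest clear ratio was 12.8 (10.4 to 16.0) in omy-miR-18b-5p on chrUn_22, with 1204 reads against 94 of omy-miR-18b-3p. The second miR-18b hairpin, on chromosome 3, had only 11 reads of omy-mir-18b-5p and 15 of omy-miR-18b-3p. The sequence of omy-mir-18b-5p holds the seed UGAAGUA and not that of miR-18. With such a sequence and so few reads, no leading arm could be told.

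**Figure D4:**
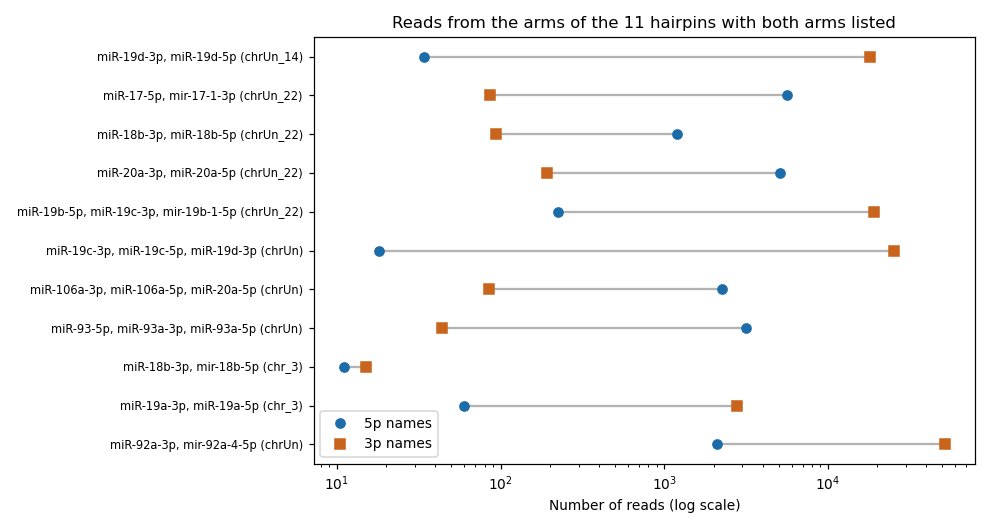
Reads of the 5p names (circles) and 3p names (squares) of each of the 11 hairpins with both arms listed, on a log scale. The squares lie right in the miR-19 and miR-92a hairpins and the circles in the miR-17, miR-18b on chrUn_22, miR-20a, miR-106a and miR-93 hairpins, and the 2 points of miR-18b on chromosome 3 lie side by side at 11 and 15 reads. The 5p name of that last hairpin does not hold the miR-18 seed.

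The 5p reads of the omy-miR-92a-3p hairpin were of unusual length. The table lists omy-mir-92a-4-5p with 2104 reads, against 51966 of omy-miR-92a-3p, a ratio of 24.7 (23.6 to 25.8). The sequences of omy-mir-92a-4-5p are 16 and 18 nt long and are shown because they are shorter than a usual miRNA and begin at neighbouring bases.
omy-mir-92a-4-5p, 814 reads: uGCUGUUAcuuugaag
omy-mir-92a-4-5p, 721 reads: gUGCUGUUacuuugaa
omy-mir-92a-4-5p, 569 reads: gUGCUGUUacuuugaaga
When the leading 5p and 3p sequences of each hairpin were paired in silico, 9 hairpins gave duplexes of -26.0 to -16.6 kcal/mol with 13 to 19 base pairs. omy-mir-92a-4-5p with omy-miR-92a-3p gave -5.4 kcal/mol with 6 pairs, and omy-mir-18b-5p with omy-miR-18b-3p gave -8.6 with 9 pairs. These are computed energies and not measurements, and a shorter sequence can form fewer pairs. The other 5p names of miR-92 were omy-miR-92a-5p with 98 reads, omy-miR-92b-5p with 27 and omy-miR-92a-4-5p, written with a capital R, with 13 reads and a sequence of 23 nt.

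The listed positions put 60 of the 77 sequences in 24 hairpins, of which 21 lie in 6 clusters, with neighbours on 1 strand at most 10 kb apart. The clusters held 123666 reads, or 65.8% of the reads of the 39 names, and 3 single hairpins held 62635, or 33.3%. Of the latter, 54070 lie at the hairpin on chrUn where omy-miR-92a-3p is listed. The split thus rests mostly on that listing, as the miR-92a hairpin on chrUn_22 was listed with the 5p arm alone. The build of these positions was not given in the sources used here. No other known or predicted miRNA was listed within 10 kb of any of the 6 clusters.

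The fullest cluster lies on chrUn_22, minus strand, from 5009598 to 5010397. Along the strand it holds miR-17, miR-18b, miR-19a, miR-20a, the hairpin of miR-19b and miR-19c, and miR-92a, which by family is the order of the mammalian miR-17-92 transcript. Its hairpins were listed with 5685, 1298, 3087, 5294, 19354 and 98 reads. The most and the fewest reads thus lie in neighbouring hairpins. The 3087 reads at the miR-19a hairpin are all named omy-miR-19a-3p, but 2965 have the main omy-miR-19c-3p sequence with an added U. The other 122 carry C11U. The 98 reads are those of omy-miR-92a-5p, because omy-miR-92a-3p was listed at a single hairpin on chrUn, minus strand, from 26352895 to 26353009. A second cluster with that order in part lies on chromosome 3, minus strand, from 56872 to 57387, with miR-17 (1705 reads), miR-18b (26), miR-19a (2844) and miR-20a-3 (433). Its omy-miR-20a-3-3p was the most abundant name under 1000 reads, and no 5p sequence was listed at its hairpin.

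The cluster with the most listed reads, 48767, lies on chrUn_14, minus strand, from 20238324 to 20239533. It holds miR-17 (42 reads), miR-93a-2 (70), miR-19d (18022) and miR-25 (30633). The mammalian miR-106b-25 cluster also holds miR-93 and miR-25, which here have miR-19d between them. The reads listed at this cluster thus stood almost wholly at its last pair of hairpins. Its miR-93a-2 hairpin was listed without a 5p sequence, and from which copy the reads came was not tested. The cluster on chrUn, plus strand, from 305562733 to 305563361 holds miR-106a with the rare form of miR-20a (2333 reads), miR-93 (3209) and a miR-19d hairpin with 10 reads, those with G4U in the seed. The clusters of a pair of hairpins were miR-20a-1 (87) with miR-19c (25450) on chrUn, plus strand, from 2032151 to 2032395, and miR-18a (2069) with miR-20b (1917) on chrUn, minus strand, from 35992332 to 35992766. The remaining single hairpins were that of omy-miR-92b-3p on chrUn_2, minus strand, from 28872873 to 28872993 with 8538 reads, and that of omy-miR-92b-5p on chrUn_3, minus strand, from 19971923 to 19971985 with 27.

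**Figure D5:**
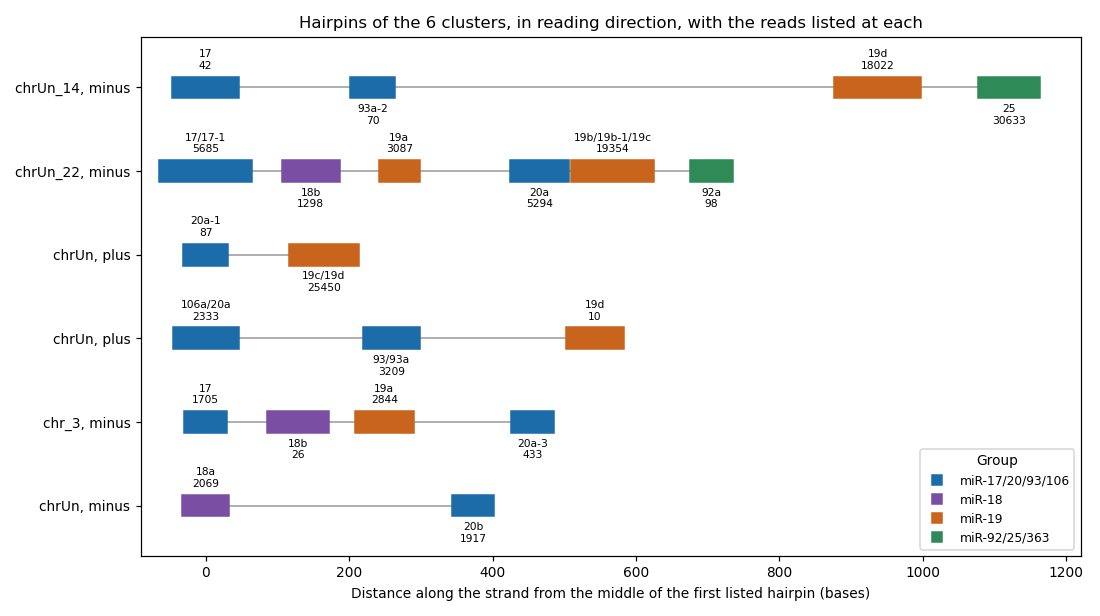
Hairpins of the 6 clusters drawn to scale along their strands, in bases from the middle of the first listed hairpin, coloured by group and marked with the listed reads. The cluster on chrUn_22 holds 6 hairpins of all 4 groups in 800 bases, and the reads of hairpins in 1 cluster differ by as much as 42 and 30633 on chrUn_14.

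Reads listed at a hairpin are not a measure of that copy alone, since the table gives 1 position to each sequence. The main 22-nt sequence of omy-miR-19c-3p, with 22211 reads, was listed on chrUn but is contained in the 23-nt forms listed on chrUn_22. The main sequence of omy-miR-17-5p, with 5585 reads, was listed on chrUn_22 and is contained in the longer form listed on chromosome 3, and likewise the 193 reads of omy-miR-20a-3p. Had each shorter sequence been counted at the cluster of the longer one, the cluster on chrUn_22 would hold 51249 reads in place of 34816, that on chrUn from 2032151 would hold 3326 in place of 25537, and that on chromosome 3 would hold 10786 in place of 5008. The order of the clusters by reads therefore depends on the listed copy.

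The remaining names were rare. The other arms written miR, 14 names with 13 to 433 reads and a median of 77.5, are the partners named above and omy-miR-20a-3-3p (433), omy-miR-20a-1-3p (87), omy-miR-93a-2-3p (70), omy-miR-19a-5p (60), omy-miR-19d-5p (34) and omy-miR-19c-5p (18). 10 names were written mir, with a small r, and held 1.49% of the members' reads. Of these, omy-mir-92-2-5p had 399 reads at 15 and 16 nt, omy-mir-20a-1-5p had 75 at 15 and 16 nt, and omy-mir-25-3p had 50 at 18 nt. omy-mir-17-5p had 28 reads at 16 nt, omy-mir-19b-5p 16 at 23 nt and omy-mir-20b-3p 12 at 19 nt. None of these 6 names was listed with a genome position or carries the seed of its group. In all, 17 of 77 member sequences (22.1%) had no listed position, with 0.845% of the reads, against 213 of 982 other known sequences (21.7%) with 2.15% of the reads.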

How the data were processed

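Small RNA of eggs was sequenced by the authors as 1 library for each of the 3 ages. The deposited values are counts of reads for each unique sequence, obtained by the authors after discarding poor, rare and adapter sequences and those matching mRNA, repeats or other classes of RNA. What was left was matched to miRBase and placed in hairpins of the trout genome. The deposited reads sum to 7684127 in known and 333447 in predicted miRNAs. Apart from the total compared next, library totals and normalized values of single ages that the paper gives were not used here. The summed reads of known miRNAs exceed the paper's total of reads mapped to miRBase, so the column may not be a plain sum over libraries, and the intervals hold only if it is.

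Members were chosen by family number, and members and lists were chosen with earlier results of these data known. All 39 names were accounted for, and values are given for names with 1000 or more reads, both arms of a hairpin, cluster members and names without the seed of their group. Reads were summed by name. Intervals at 95% are exact Poisson for reads and Clopper-Pearson for shares, from which those of arm ratios follow. Within a name, substitutions were read against its most abundant sequence, placed with at most 3 bases of shift and 2 mismatches. Between names, the most abundant sequences were compared base by base from the 5′ end, without such a limit. Listed hairpins that overlap on 1 strand were merged. Duplexes were computed with RNAduplex (ViennaRNA 2.7.2). Python 3.11.15, numpy 2.4.6, SciPy 1.17.1 and matplotlib 3.10.9 were used, and the functions were tested on simulated data. Comparisons of ages and a match to RefSeq miRNAs were not run.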

Additional observations from a re-analysis of the deposited data

How the results depend on the processing

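No alternative changed the order of the 4 groups by reads. The share of known reads, 2.45%, became 2.48% with sequences that have a genome position, 2.51% with 20 to 24 nt, 2.51% with the main sequence of each name, 2.34% with predicted reads in the denominator and 2.38% with membership by seed. With groups set by seed, the shares were 49.0% for the miR-92 group, 9.95% for the miR-17 group and 1.74% for miR-18. With a genome position only, they were 50.1% for the miR-92 group and 36.9% for miR-19, and 98.0% for the leading arms. With 20 to 24 nt only, they were 49.6%, 37.3% and 99.1%. With the main sequence only, the miR-92 group rose to 61.3%, miR-19 fell to 24.9% and the miR-17 group was 12.0%, and the main sequence held 46.0 to 53.5% of the reads of the 3 leading miR-19 names. Without names written mir, the leading arms held 99.2%. The other 11 settings compared moved no value beyond counting error or, for counts, by over 1.5 times. The number of clusters was 6 under each setting, and 13 names had 1000 or more reads with the main sequence only.

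The count of a shorter sequence at the cluster of the longer one was chosen after seeing the data. No paired analysis was possible because the ages were sequenced as single libraries. The reads could not be told apart by age, near-identical names share reads, and no known sequence is listed below 10 reads, so one that is not listed is not shown to be absent.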
